A study of Mus musculus with 2 samples.

Results

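DNA repair genes were compared in expandable hepatoblasts, mouse liver progenitor cells kept in culture, at passage 20 and at passage 5. The genes were taken by name: every gene probe whose array symbol begins with Fanc, Rad5 and a digit, Xrcc, Brca, Msh, Mlh, Pms, Ercc, Chek or Parp and a digit, or is Blm, Wrn, Atm, Atr, Nbn, Mre11a or Exo1. This gave 69 genes with 131 probes, of 20096 named genes with 33726 probes on the array. The choice rests on symbols and not on function, so it holds a few genes whose known work lies elsewhere.

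Total RNA of passage 20 cells and of passage 5 cells was hybridised to 1 array each. Both cultures were hepatoblasts from liver of strain C57BL/6, grown in a medium with nicotinamide, epidermal growth factor, the GSK3 inhibitor CHIR99021, the TGF-beta receptor inhibitor E-616452, lysophosphatidic acid and sphingosine 1-phosphate, on Matrigel or laminin. Per the labels the passages came from 2 independent experiments, so passage and experiment cannot be told apart, and a difference below compares 2 arrays with no replicate check, SD or p-value. Of 12 hepatoblast markers 11 were well above background at one or both passages, with Afp at 2.64 log2 at passage 20 and 2.55 at passage 5, while Dlk1 was not. Within that list Cdh1 was 2.89-fold and Prox1 2.02-fold higher at passage 20, Epcam 2.24-fold lower and Gpc3 lower by no less than 9.49-fold. Other cell types were represented by 1 of 8 hepatocyte markers, 1 of 8 fibroblast and stellate markers, 3 of 4 mesothelial markers, 2 of 5 leukocyte markers and 0 of 5 endothelial markers. Among these, the fibroblast gene Dcn was lower at passage 20 by at least 15.9-fold, and the mesothelial genes Upk3b and Wt1 by at least 4.34-fold and 2.02-fold, whereas the mesothelial gene Msln was 1.40-fold higher. Their part in the values below was not tested. The arrays also differed in sex-linked transcripts: Xist was at 5.06 log2 at passage 20 and -0.13 at passage 5, and the Y-linked gene Ddx3y was not above background at passage 20 against 1.25 at passage 5, both picked after their values were seen. The cultures may therefore differ in sex or origin, which cannot be told apart from passage for any gene below.

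Cells repair DNA by pathways that differ in the lesion they act on. Breaks through both strands are sensed by the Mre11-Rad50-Nbn complex and the kinases Atm and Atr, and are rejoined either by homologous recombination, which copies an intact sister chromatid, or by end joining. The Fanconi anaemia proteins unhook crosslinks between strands, mismatch repair corrects replication errors, nucleotide excision repair removes bulky adducts, and Parp1, Parp2 and Xrcc1 act at breaks in 1 strand. Recombination and mismatch repair genes are expressed mostly in cycling cells, as a rule together with replication genes.

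Each value is a log2 signal after subtraction of the 75th percentile over the gene probes of its array; a difference is the passage 20 value minus the passage 5 value. A gene is represented by its brightest probe and counted as measured if that probe was well above background on at least 1 array. Where only 1 of the arrays gave such a signal, the difference is a bound, written "at least". Of the 69 genes 63 were measured, 61 of them on both arrays and 2 by a bound. The other 6 (Fancf, Msh4, Msh5, Rad51ap2, Rad51c and Rad54l2) had no probe well above background at passage 20 or at passage 5. Msh4 and Msh5 encode the meiotic MutS pair, and Rad54l2 encodes a helicase known as a partner of the androgen receptor.

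With the 75th percentile as the scale, most of the repair genes lay a little higher at passage 20, and few differed by much. The median difference of the 63 measured genes was 0.29 log2 (quartiles 0.09 and 0.51), against 0.07 (quartiles -0.23 and 0.33) for all 11804 measured named genes. Of the 63, 52 had a positive difference (82.5%, against 57.5% of all genes) and 11 a negative one, and 48 lay above the median of all genes. At 2-fold, 2 genes were higher, Brca2 and Xrcc2, a share near the 3.28% of all measured genes that passed this limit, and 0 were lower, against 5.74%. At 1.5-fold, 10 genes were higher (15.9% of the members, against 10.4% of all genes) and 0 were lower, against 11.8% of all genes. The spread was narrower than that of the array, with differences from -0.48 to 1.19 and an SD between genes of 0.35 log2, against 0.66 for all genes. The size of the shift depends on how the arrays are scaled: centring on the median lowered the median of all genes by 0.31 log2 and put that of the repair genes at -0.02, and scaling to external spike-in RNA lowered it by 0.22 and put the repair genes at 0.07. With median centring 30 repair genes were above and 33 below 0 (26.5% of all genes were above), 2 were at least 1.5-fold higher (3.17%, against 4.24% of all genes) and 5 at least 1.5-fold lower (7.94%, against 22.4%). With spike-in scaling 34 were above and 29 below 0 (34.8% of all genes were above), 3 were higher by that limit (4.76%, against 5.28%) and 4 lower (6.35%, against 17.9%). With both, 0 reached 2-fold in either direction. Relative to the median of all genes the repair genes were higher by 0.22 log2, and by 0.14 to 0.22 under the 11 alternatives. Repeat spots of 114 probes, all well above background on both arrays, give a median SD of 0.08 log2 (95th percentile 0.23) when single spots are compared between arrays. This leaves out dim probes and variation between cultures.

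**Figure D1:**
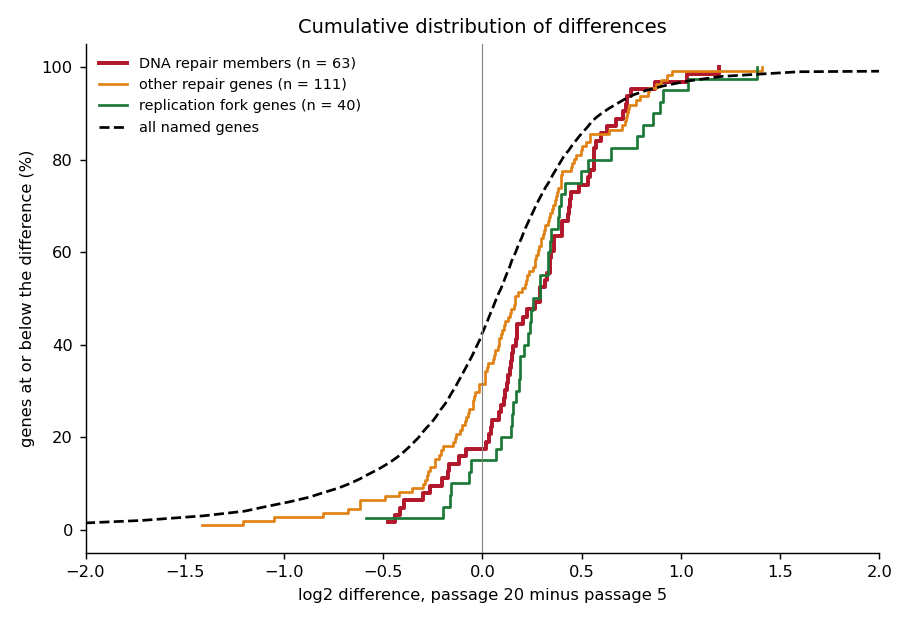
Cumulative distribution of the log2 difference (passage 20 minus passage 5, x axis, drawn from -2 to 2) as percent of genes (y axis), for the 63 measured DNA repair genes, 111 other repair genes, 40 replication fork genes and all measured named genes. The repair curve lies to the right of that of all genes over most of its length, with a median of 0.29 against 0.07, and it lacks the long lower tail.

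By role, the genes of homologous recombination had the highest median and those of single-strand break repair the lowest. The median was 0.49 log2 for 13 measured recombination genes, 0.34 for 7 genes of break sensing and checkpoint, 0.34 for 8 mismatch repair genes, 0.32 for 9 members of the PARP family outside break repair, 0.22 for 9 Fanconi anaemia genes, 0.14 for 9 genes of excision repair, 0.08 for 4 end joining genes and -0.12 for 4 genes of single-strand break repair. The medians of recombination, checkpoint, mismatch and PARP family genes were positive, and that of single-strand break repair was negative, under all 11 alternatives. Those of end joining and excision repair turned negative with median centring and with spike-in scaling, and that of the Fanconi genes with median centring. No difference between roles was tested.

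**Figure D2:**
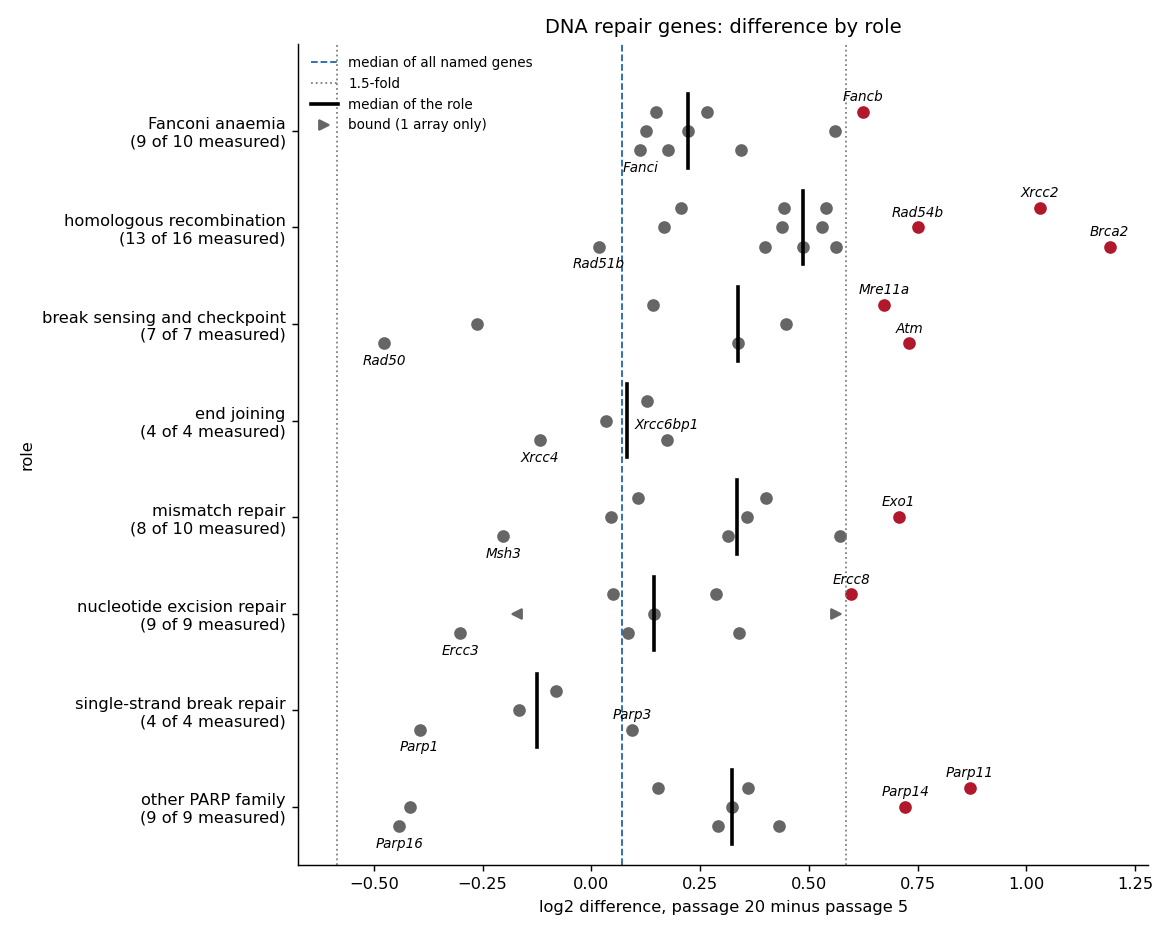
Log2 difference (passage 20 minus passage 5, x axis) of each measured gene by role (y axis). Points are genes by their brightest probe, triangles are bounds, red points are at least 1.5-fold higher, black bars are role medians, and the dashed line is the median of all named genes. By this rule 10 genes are red, and no gene reaches the dotted line at 1.5-fold lower.

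Both genes past 2-fold belong to homologous recombination, but Brca2 passed this limit under 8 and Xrcc2 under 4 of the 11 alternatives. Brca2 encodes a mediator of strand exchange at resected breaks, and its signal was 0.73 log2 at passage 20 and -0.47 at passage 5, a 2.28-fold excess. Xrcc2, whose product assists strand exchange, was at -0.67 at passage 20 and -1.70 at passage 5, a 2.04-fold excess. Each gene had another measured probe farther from the 3′ end, above background at passage 20 only. These gave at least 0.98 log2 for Brca2 and at least 1.01 for Xrcc2. A bound from a probe detected at passage 20 only can only be positive, so its sign adds no support. The 4 probes are shown because these calls rest on them (60 bases each, from the array files, positions in mm9), with the probe used given first for each gene:
Brca2, chr5:151372225-151372284, plus strand: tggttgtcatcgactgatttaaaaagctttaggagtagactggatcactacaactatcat
Brca2, chr5:151325787-151325846, plus strand: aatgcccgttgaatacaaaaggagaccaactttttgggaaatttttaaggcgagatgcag
Xrcc2, chr5:25196044-25196103, minus strand: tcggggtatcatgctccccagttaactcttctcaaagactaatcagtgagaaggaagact
Xrcc2, chr5:25197876-25197935, minus strand: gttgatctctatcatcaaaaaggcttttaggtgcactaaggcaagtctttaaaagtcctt
Both genes lie on chromosome 5. The remaining 2 probes of Xrcc2 stayed below that level at both passages.

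The other recombination genes were higher by less. Rad54b, a DNA translocase of the recombination machinery, was at 0.77 log2 at passage 20 and 0.02 at passage 5 (1.68-fold), and its second probe gave at least 0.65. Within 1.5-fold, Rad51d (0.54), Rad52 (0.53), Rad51ap1 (0.49), Rad54l (0.44), Brca1 (0.44) and the helicase gene Blm (0.40) followed. The first of these has 3 measured probes, of which another gave 0.50 and the one nearest the 3′ end, above background at passage 5 only, a bound of -0.19. Smaller differences were those of Xrcc3 (0.21) and Rad51b (0.02) and of the Werner helicase gene Wrn (0.17). All 13 measured genes of this role had a positive difference, against 57.5% of all genes, and 10 of them were within 1.5-fold. With median centring and with spike-in scaling 10 of the 13 were positive, against 26.5% and 34.8% of all genes, Rad51b, Wrn and Xrcc3 being negative. With quantile normalization, loess and the authors' values 11 were positive, against 51.8%, 47.6% and 52.5% of all genes. With the percentile over detected probes 12 were positive, against 53.1%.

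Among the genes of break sensing and checkpoint control, the kinase gene Atm had the largest difference. It was at -0.60 log2 at passage 20 and -1.33 at passage 5 by its brightest probe, a 1.66-fold excess. Its second probe was printed in 10 spots, the only repair probe with repeats, and averaged -1.84 ± 0.19 at passage 20 and -2.79 ± 0.13 at passage 5 (SD of 10 spots on 1 array). The spots ranged from -2.05 to -1.44 at passage 20 and from -3.10 to -2.65 at passage 5, so the sets did not overlap, and their difference was 0.95 log2. These repeats measure spotting and hybridisation error within an array, not the spread between cultures. The probe printed in repeats has this sequence:
Atm, chr9:53256167-53256226, minus strand: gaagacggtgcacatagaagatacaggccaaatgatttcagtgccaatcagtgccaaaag
The related kinase gene Atr differed by 0.34 log2 with both measured probes at 0.33 and 0.34.

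The members of the Mre11 complex did not differ alike. The nuclease gene Mre11a was at 2.15 log2 at passage 20 and 1.47 at passage 5 (1.60-fold) by its brightest probe, but its other probes differed by 0.12 and 0.10 only. Rad50, which encodes the ATPase that bridges DNA ends, was at -0.87 at passage 20 and -0.40 at passage 5, the lowest difference of all members (-0.48, or 1.39-fold lower) and within 1.5-fold. Nbn, whose product recruits Atm, differed by 0.14, with its other probe at 0.17. The 3 probes of Mre11a are shown because they disagree. The brightest spans 950 bases of mm9 with its 60 bases, as a probe across a splice junction does, and lies farthest from the 3′ end:
Mre11a, chr9:14637146-14638095, difference 0.67: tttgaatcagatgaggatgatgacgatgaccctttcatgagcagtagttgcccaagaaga
Mre11a, chr9:14638769-14638828, difference 0.10: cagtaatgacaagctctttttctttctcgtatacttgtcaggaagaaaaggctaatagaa
Mre11a, chr9:14639639-14639698, difference 0.12: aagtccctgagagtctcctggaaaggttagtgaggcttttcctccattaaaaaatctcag
Chek1, the effector kinase of Atr, differed by 0.45 log2 (other probe 0.24). Chek2, that of Atm, differed by -0.26, while its dimmer probe, above background at passage 20 only, gave at least 0.27, so its direction is not settled.

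**Figure D3:**
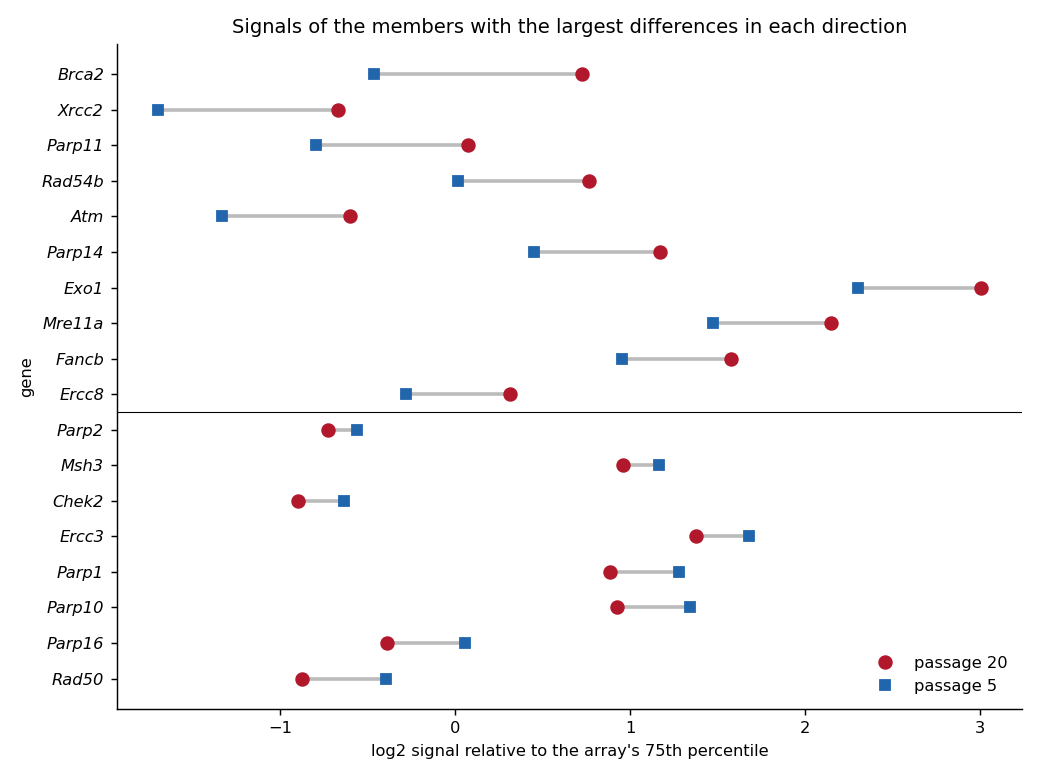
Log2 signal relative to the array's 75th percentile (x axis) at passage 20 (circles) and passage 5 (squares) for the 10 genes at least 1.5-fold higher and, below the line, the 8 lowest differences measured on both arrays (y axis). The gap is 1.19 log2 for Brca2 at the top and -0.48 for Rad50 at the bottom; levels of different genes come from different probes and are not comparable.

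Every measured Fanconi anaemia gene had a positive difference, against 57.5% of all genes, but 8 of the 9 were within 1.5-fold. With median centring 6 of the 9 were negative and 3 positive, where 26.5% of all genes were positive. With spike-in scaling 4 were negative and 5 positive, where 34.8% of all genes were positive. Fancb, a subunit of the core complex, was at 1.58 log2 at passage 20 and 0.95 at passage 5 (1.54-fold). Fancg, another core subunit, was at 1.33 at passage 20 and 0.77 at passage 5, a difference of 0.56, with a second probe at no less than 0.44. Fanca (0.34), Fance (0.22), Fancc (0.18) and Fancl (0.13), the last of which encodes the ubiquitin ligase of the complex, differed less, as did the translocase gene Fancm (0.27, other probe 0.28). Fancd2 and Fanci, the pair that the core complex ubiquitinates, differed by 0.15 and 0.11, with another probe of Fancd2 at -0.11. The X-linked members are Fancb and Ercc6l, a gene of a mitotic DNA translocase placed with excision repair by its symbol, which differed by 0.08. The median over 372 X-linked genes was 0.06 log2, against 0.07 over 11367 autosomal genes.

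Of the mismatch repair genes, Exo1 differed most. This exonuclease gene, whose product also resects breaks, was at 3.01 log2 at passage 20 and 2.30 at passage 5, a 1.63-fold excess from its 1 probe. Pms2, which encodes an endonuclease of the pathway, was higher by 0.57 log2. Of the mismatch sensor genes, Msh6 was higher by 0.40 and Msh3 lower by 0.20, although the 3 probes of Msh3 ran from -0.20 to 0.28. Pms1 (0.31) had a second probe with a bound of -0.49, and Mlh3 differed by 0.11.

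Nucleotide excision repair genes lay on both sides. Ercc8, which encodes the Cockayne syndrome A protein of transcription-coupled repair, was at 0.32 log2 at passage 20 and -0.28 at passage 5 (1.51-fold), just past the limit of 1.5-fold. Another Ercc8 probe, designed on another transcript, gave at least 1.71 log2, and the third was not above background on either array. Ercc6, the Cockayne syndrome B gene, was above background at passage 20 only and at least 1.48-fold higher. The nuclease genes Ercc1, Ercc4 and Ercc5 differed by 0.34, 0.14 and 0.05. The genes of the TFIIH helicases were lower, Ercc3 by 1.23-fold and Ercc2, above background at passage 5 only, by at least 1.13-fold. Ercc6l2 (0.29) had probes from -0.17 to 0.49.

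Single-strand break repair and end joining were the roles nearest to, or below, the rest of the array. Parp1, the main sensor of nicks, was at 0.88 log2 at passage 20 and 1.28 at passage 5 (1.31-fold lower), and its second probe differed by -0.42. The probes of Parp1 overlap by 40 bases, printed in capitals, so their near-equal differences of -0.39 and -0.42 are not independent:
Parp1, chr1:182530341-182530639, plus strand: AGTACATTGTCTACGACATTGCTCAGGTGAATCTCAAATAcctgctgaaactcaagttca
Parp1, chr1:182530321-182530619, plus strand: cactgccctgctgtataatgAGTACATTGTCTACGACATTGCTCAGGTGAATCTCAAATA
Parp2 was lower by 0.17 log2 (other probe -0.25) and the scaffold gene Xrcc1 by 0.08, while Parp3 differed by 0.09. The Ku subunit genes Xrcc5 and Xrcc6 differed by 0.13 and 0.03. Xrcc4, the partner of DNA ligase IV, differed by -0.12, with another probe at 0.40. Xrcc6bp1, now named Atp23, was grouped here by its array symbol only, and differed by 0.17.

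The PARP family outside break repair held higher and lower genes. These enzymes attach ADP-ribose to proteins in other settings, among them antiviral defence. Parp11 was at 0.08 log2 at passage 20 and -0.79 at passage 5 (1.83-fold), from 1 probe. Parp14, at 1.17 at passage 20 and 0.45 at passage 5, was 1.65-fold higher, with another probe at no less than 1.31. Its interferon-inducible neighbour Parp9, 106.0 kb away on chromosome 16, was higher by 0.43 and Parp12 by 0.36. Parp10, at 0.92 at passage 20 and 1.34 at passage 5, was 1.34-fold lower, and Parp16, which sits in the endoplasmic reticulum, was at -0.39 at passage 20 and 0.05 at passage 5 (1.36-fold lower). Parp6 and Parp8 differed by 0.32 and 0.29. Parp4, the vault enzyme, is uncertain: its brightest probe was at 0.11 log2 at passage 20 and -0.04 at passage 5, a difference of 0.15, and the other, only slightly dimmer on average, was at 0.35 at passage 20 and -0.87 at passage 5, a difference of 1.22. Both lie across splice junctions by their span in mm9:
Parp4, chr14:57274432-57278114, difference 0.15: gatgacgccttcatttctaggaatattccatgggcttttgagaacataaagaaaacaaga
Parp4, chr14:57256794-57260137, difference 1.22: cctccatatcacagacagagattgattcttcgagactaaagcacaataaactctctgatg

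Agreement between probes gives a further measure of how far single values can be read. Of the 40 members with several probes 29 had more than 1 measured. In 22 of these all measured probes had the same sign and in 7 (Chek2, Ercc6l2, Fancd2, Msh3, Pms1, Rad51d and Xrcc4) they did not. The median gap between the lowest and the highest probe was 0.18 log2, and it was below 0.25 in 18 genes. These counts include bounds. The sign of a bound is fixed by the array that detected the probe, and a gap with a bound is not settled. The widest gaps were those of Ercc8 (1.12) and Parp4 (1.07), and the narrowest those of Atr (0.01) and Fancm (0.01). Over all 96 measured member probes the median was 0.29 log2, with 78 above and 18 below 0. Of these probes 11 gave bounds, whose sign is likewise fixed. Detection differed with the position of the probe: 37 of 40 probes nearest the 3′ end of their gene were measured, against 35 of 62 lying farther away. Some of the farther probes were designed on other transcripts, and the cause was not tested. In Wrn, probes that overlap by 51 bases, of which 50 match, differed in detection, since 1 was above background on both arrays and the other on neither.

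**Figure D4:**
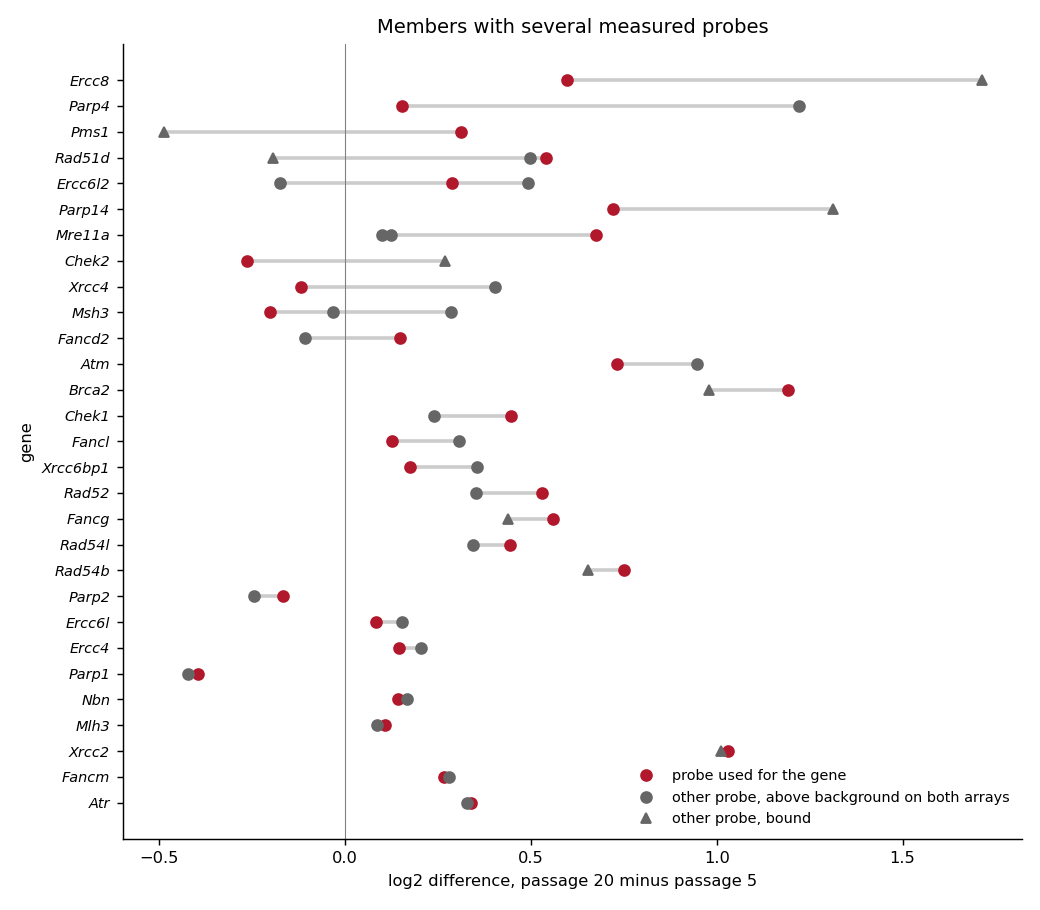
Log2 difference (passage 20 minus passage 5, x axis) of every measured probe of the 29 members with several (y axis, sorted by gap). Red marks the probe used for the gene, grey circles other probes above background on both arrays, and grey triangles bounds. The lines are short for Atr and Fancm and cross 0 in 7 genes. The length of a line with a triangle is not settled, because a bound gives only the least difference.

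Promoter sequences from RefSeq (GRCm38.p6, 250 bases before to 50 after the start) matched 52 of the 69 genes, with 57 promoters. The NF-Y letters CCAAT, on either strand, were present in 59.6% of them, against 37.4% of all 32851 promoters. Among measured members the median difference was 0.27 log2 for 29 genes with CCAAT and 0.31 for 18 without, a split made after the shares were seen, while 5 of the 29 and 1 of the 18 were at least 1.5-fold higher. The E2F letters TTTCGCGC or TTTGGCGC were found in 2 of the 57 member promoters (3.51%), against 0.813% of all. These belong to Msh3, which differed by -0.20 log2, and Rad51c, which was not measured. The CHR letters TTTGAA were present in 5 (8.77%), against 17.9% of all, and the CRE letters TGACGTCA in 2 (3.51%), against 1.79%. Shares that rest on so few promoters are imprecise. Only 6 of the 10 genes at least 1.5-fold higher had an entry, with 7 promoters, of which 5 held CCAAT, 0 the E2F letters, 1 CHR and 1 CRE letters. These searches describe letters in a window and no binding. The promoters of the 2 genes with an entry that differed most in each direction are shown, for Parp11 1 of its 2 entries; capitals mark a match to any of the letters. Brca2 holds 1 match, the CRE letters that begin 20 bases before the start, and the other 3 shown hold 0, although the Parp11 entry not shown holds the CCAAT letters:
Brca2, chr5:150522371-150522670 (GRCm38.p6), plus strand: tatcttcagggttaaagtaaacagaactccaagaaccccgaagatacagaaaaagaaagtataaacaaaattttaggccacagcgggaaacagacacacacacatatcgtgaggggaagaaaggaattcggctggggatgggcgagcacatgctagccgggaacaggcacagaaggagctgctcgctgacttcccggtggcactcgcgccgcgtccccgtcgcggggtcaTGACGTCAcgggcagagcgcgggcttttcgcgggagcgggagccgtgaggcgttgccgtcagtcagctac
Parp11, chr6:127446590-127446889 (GRCm38.p6), plus strand: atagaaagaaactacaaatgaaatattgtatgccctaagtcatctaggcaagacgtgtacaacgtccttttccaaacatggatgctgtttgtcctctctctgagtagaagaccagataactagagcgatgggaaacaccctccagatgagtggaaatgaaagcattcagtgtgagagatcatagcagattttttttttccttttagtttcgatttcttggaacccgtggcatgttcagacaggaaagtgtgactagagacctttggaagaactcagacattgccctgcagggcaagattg
Parp16, chr9:65214440-65214739 (GRCm38.p6), plus strand: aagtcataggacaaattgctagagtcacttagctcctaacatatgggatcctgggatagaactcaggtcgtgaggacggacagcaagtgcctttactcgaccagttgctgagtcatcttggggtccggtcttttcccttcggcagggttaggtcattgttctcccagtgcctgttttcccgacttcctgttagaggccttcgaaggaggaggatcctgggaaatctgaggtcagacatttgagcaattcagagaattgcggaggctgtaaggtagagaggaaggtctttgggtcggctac
Parp1, chr1:180568641-180568940 (GRCm38.p6), plus strand: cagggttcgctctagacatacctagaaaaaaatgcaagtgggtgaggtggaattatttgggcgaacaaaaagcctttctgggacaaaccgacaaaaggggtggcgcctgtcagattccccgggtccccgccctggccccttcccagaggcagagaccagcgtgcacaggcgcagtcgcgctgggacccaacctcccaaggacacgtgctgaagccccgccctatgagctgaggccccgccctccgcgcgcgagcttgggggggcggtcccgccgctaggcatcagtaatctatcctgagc

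Other repair genes, and replication genes, were set beside the members. Of 118 other repair genes 111 were measured, with a median of 0.16 log2. By the 1.5-fold limit 16 were higher (14.4%, against 10.4% of all genes) and 7 lower (against 11.8% of all genes). The same shares of all genes apply to each list below. The shares higher of base excision repair (9.52%) and of excision repair partners (11.8%) were near that of all genes. Translesion synthesis and direct reversal had 5 of 14 higher and 0 lower (median 0.34), among them the polymerase scaffold Rev1 (2.65-fold) and Shprh (1.87-fold). Partners of recombination and crosslink repair had 4 of 26 higher and 3 lower (median 0.15). There, Ube2t, the ubiquitin-conjugating enzyme of the Fanconi pathway, was 1.94-fold and Dna2 1.83-fold higher, Top3a 1.74-fold and Recql5 1.53-fold lower, and Palb2, the partner that links Brca1 to Brca2, above background at passage 5 only, was lower by no less than 2.66-fold. Checkpoint and break response partners had 1 of 24 higher, Tipin (1.65-fold), and 2 lower, the phosphatase Cdc25c (2.31-fold) and the histone H2afx (2.07-fold). Base excision repair had 2 of 21 higher (Neil3 by 1.74-fold and Mbd4 by 1.66-fold) and 1 lower (Tdg by 1.53-fold). Excision repair partners had 2 of 17 higher (Ddb2 by 1.79-fold and Uvssa by 1.56-fold) and 1 lower (Ddb1 by 1.60-fold), and end joining partners had 2 of 9 higher (Rif1 by 1.91-fold and Prkdc by 1.67-fold) and 0 lower. Of 40 replication fork genes, all measured, 8 were higher and 1, Pold2 (by 0.59 log2), lower, and their median of 0.27 log2 was near the 0.29 of the repair members. Ccne2 (2.61-fold) and Cdc7 (2.05-fold) differed most in that list.

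**Figure D5:**
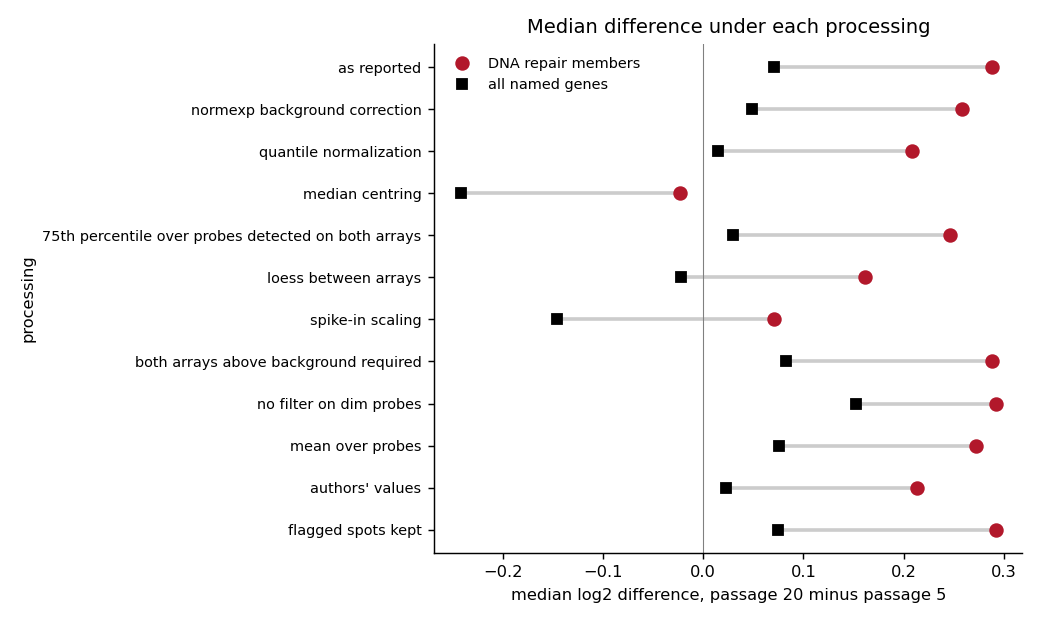
Median log2 difference (passage 20 minus passage 5, x axis) of the DNA repair genes (circles) and of all named genes (squares) under the reported processing and 11 alternatives (y axis). The repair median lies to the right of that of all genes in every row, by 0.14 to 0.22 log2, while both move together with the scaling, the repair median from -0.02 to 0.29.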

How the data were processed

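The authors deposited 1 scanner file per passage, whose intensity values were made by Agilent Feature Extraction 10.7.3.1 from 1-colour Cy3 arrays, with spatial and multiplicative detrending and surrogate values for dim spots, per the file headers. They also deposited log2 values with the same distribution in both columns (median 6.31); they were made with a tool not given in the sources used here.

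Control spots and 132 gene spots with an outlier flag on either array were left out. Log2 intensity was averaged per probe. From it the 75th percentile of the array, taken over 41158 gene probes, was subtracted (a signal of 853 at passage 20 and 1085 at passage 5). Of the probes 46.1% at passage 20 and 45.5% at passage 5 were well above background. A gene is an array symbol; before flagged spots were left out, 18673 were current RefSeq symbols (GRCm38.p6), 1378 older ones and 51 named by accession. Bounds used the higher of the dim probe's value and the lowest detected value (-3.17 at passage 20 and -3.32 at passage 5). Probe positions are in mm9, per the file headers.

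With 1 array per passage there is no test, and the number of arrays limits the precision. Named genes are members at least 1.5-fold different, the extremes of each role, and up to 2 genes per direction of each other list, beside the remaining members by their difference. Members, lists and alternatives were chosen with earlier results of these data known, and roles were assigned by hand. A probe with repeats counts as above background if most of its spots are, a rule set after the files were seen. The counts and medians cover all members, of which 3 are not reported here by name. On simulated data for this comparison with 20096 genes, of which 200 were changed, true differences of 1 and 2 log2 came back with medians of 0.99 and 2.00. In the measured data 10.4% of genes were at least 1.5-fold higher and 11.8% lower. The simulation therefore does not test the choice of scaling. Tools were Python 3.11.15, pandas 2.3.3, statsmodels 0.14.6 (loess) and limma 3.58.1 (normexp, offset 50).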

Additional observations from a re-analysis of the deposited data

How the results depend on the processing

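The median difference of the repair genes, 0.29 log2, was -0.023 with median centring, 0.071 with spike-in scaling and 0.16 with loess between arrays, and within 0.08 of the reported value under the other 8 alternatives. The count at least 2-fold higher, 2 as reported, was 0 with normexp background correction, median centring and spike-in scaling, 1 with quantile normalization, the 75th percentile over detected probes, loess and the authors' deposited values, 3 with no filter on dim probes, and 4 when probes of a gene were averaged. In that last alternative the treatment of dim values was corrected after its first results were seen: floors had been taken from averages that included dim probes, which gave invalid bounds, and dim values now enter at the array's floor or their own value, whichever is higher. The count at least 2-fold lower, 0 as reported, was 1 with no filter on dim probes (Ercc2). The count at least 1.5-fold higher was 10 as reported, against 10.4% of all genes, whose share under each alternative follows in brackets. It was 2 with median centring (Brca2 and Xrcc2) (4.24%) and 3 with spike-in scaling (5.28%). Normexp gave 7 (8.29%), loess 8 (7.16%), the percentile over detected probes 8 (9.23%) and quantile normalization 9 (8.18%). With no filter it was 13 of all 69 genes (13.4%). The count at least 1.5-fold lower was 0 as reported, against 11.8% of all genes. It was 5 with median centring (22.4% of all genes), 4 with spike-in scaling (17.9%), 1 with loess (15.3%) and 1 with no filter (11.4%). Median centring and spike-in scaling lower every difference by a constant; for the other settings the cause was not tested. Brca2 and Xrcc2 were past 1.5-fold under all 11 alternatives (0.88 to 1.20 and 0.72 to 1.03 log2), Parp11 under 10, Exo1, Parp14 and Rad54b under 9, Atm under 8, Mre11a under 7, Fancb under 6 and Ercc8 under 5. No paired analysis was possible because each passage has 1 array. Signal over background limits the dim members: 6 genes have no measured probe and 2 have bounds only.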
